A study of Mus musculus with 6 samples.

Results

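Axon guidance genes encode the secreted and membrane-bound cues that steer growing axons and migrating neurons, and the receptors that read them. The genes of the classical families were taken from the count table of the cerebral cortex of mouse embryos in which Ybx1, an RNA-binding protein of the Y-box family and a reader of 5-methylcytosine in RNA, was deleted from neural cells. Members were the genes whose symbol starts with Sema, Plxn, Epha, Ephb, Efna, Efnb, Slit, Robo or Unc5 with a number, together with Nrp1, Nrp2, Ntn1, Ntn3, Ntn4 and Dcc, and without the Slitrk genes. Unc5a to Unc5d, 4 genes, were counted as members although the digit in their name belongs to the stem. The rule gave 68 of the 17348 genes in the table, 34 ligands and 34 receptors in 11 families.

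The 6 mRNA libraries came from cortices at E18.5. Of these, 3 were labelled cKO and 3 WT, called Ctrl here. The cKO genotype is Nestin-Cre with both Ybx1 alleles floxed (Ybx1 fl/fl). Recombination removes exons 3 to 8 of Ybx1 in neural stem cells and their descendants. The study's account of the RNA sequencing calls the controls wild type littermates, while its other experiments used Ybx1 fl/fl mice without Cre as Ctrl, so whether these controls carried floxed alleles is not settled here. Nestin-Cre acts in the neural lineage, and cells of other origin in the dissected cortex, such as microglia, are not its target. Neither the labels nor the methods say whether a library was made from 1 embryo or from pooled cortices, so p-values measure the spread between these libraries.

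Semaphorins signal through plexins, the secreted class 3 semaphorins with neuropilins as co-receptors. Slits signal through Robo receptors and netrins through Dcc and the Unc5 receptors. Ephrins are tethered to the membrane and signal in both directions with the Eph receptor kinases on the neighbouring cell. In the fetal cortex these systems are known for guiding callosal, corticofugal and thalamocortical axons, placing interneurons and setting area and layer boundaries.

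Ybx1, the targeted gene, stood at 1015, 1297 and 956 CPM (counts scaled to the library total) in Ctrl and at 24.0, 24.8 and 24.9 CPM in cKO. Totals were between 15091951 and 16885451 estimated counts per library, so that 3 counts, taken as the detection floor for counting error only, were worth 0.176 to 0.206 CPM. Markers of cortical excitatory neurons were present in every library, with Neurod6 at 732 to 1011 CPM and Tbr1 at 271 to 368 CPM. The Y-linked genes Eif2s3y, Kdm5d and Ddx3y had at least 714 counts in each Ctrl library and at most 1 in each cKO library. The groups thus differed as libraries from male and from female embryos would. For every gene, autosomal ones included, a difference of sex and one of genotype cannot be told apart. Among all 13570 genes tested, 10 (0.0737%) had an adjusted p under 0.05 by edgeR's quasi-likelihood test.

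Because Ybx1 was first described as a protein that binds the Y box, a promoter element built around CCAAT, the bases before the start are shown for 4 of the 5 members that were higher in cKO at an unadjusted p under 0.05. The windows are the 250 bases upstream of the annotated start, from RefSeq on GRCm38.p6, written 5′ to 3′ on the strand of the gene. Capitals mark CCAAT or its reverse complement ATTGG, and the GC box GGGCGG or its reverse complement CCGCCC. Epha7 lies on the plus strand at chr4:28812881-28813130, Efna5 on the minus strand at chr17:62881318-62881567, Unc5b on the minus strand at chr10:60831582-60831831 and Sema3d on the plus strand at chr5:12382916-12383165.
Epha7: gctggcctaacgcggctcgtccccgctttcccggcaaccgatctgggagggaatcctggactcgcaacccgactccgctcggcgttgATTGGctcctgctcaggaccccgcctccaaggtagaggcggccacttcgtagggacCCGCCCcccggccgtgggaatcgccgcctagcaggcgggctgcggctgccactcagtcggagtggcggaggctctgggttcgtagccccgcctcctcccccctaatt
Efna5: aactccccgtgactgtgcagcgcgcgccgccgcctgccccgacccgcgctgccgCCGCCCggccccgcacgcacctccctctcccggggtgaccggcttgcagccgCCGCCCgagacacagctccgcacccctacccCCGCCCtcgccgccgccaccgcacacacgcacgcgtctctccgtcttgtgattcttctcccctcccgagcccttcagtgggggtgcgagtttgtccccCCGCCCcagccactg
Unc5b: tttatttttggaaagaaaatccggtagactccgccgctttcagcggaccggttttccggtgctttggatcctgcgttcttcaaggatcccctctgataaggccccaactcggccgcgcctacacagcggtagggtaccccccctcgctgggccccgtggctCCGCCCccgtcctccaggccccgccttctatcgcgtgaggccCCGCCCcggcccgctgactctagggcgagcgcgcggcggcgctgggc
Sema3d: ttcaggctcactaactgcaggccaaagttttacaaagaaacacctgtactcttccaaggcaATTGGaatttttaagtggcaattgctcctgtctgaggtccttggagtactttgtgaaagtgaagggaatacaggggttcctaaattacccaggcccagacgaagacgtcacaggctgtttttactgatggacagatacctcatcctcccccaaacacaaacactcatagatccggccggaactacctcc
The Epha7 window held 1 CCAAT box and 1 GC box, that of Efna5 4 GC boxes, that of Unc5b 2 GC boxes and that of Sema3d 1 CCAAT box. Epha7 has another annotated start close by, whose window is not shown. Sema6d, the remaining one of the 5, has windows at 2 starts with 0 CCAAT boxes in either, also not shown. Windows were found for 58 of the 68 members, 74 windows in all. CCAAT in either orientation was in 27.0% of them, beside 33.8% of all 32851 windows and 35.2% of those of the genes tested. The GC box was in 71.6% of the member windows, beside 32.7% of all windows and 56.8% of those of the genes tested. No match overlapped another in the 4 windows shown, and a match is a description of letters, not of a binding site.

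The cortex expressed nearly the whole repertoire at E18.5. Of the 68 members, 66 passed the filter on low counts. Epha1, an Eph receptor, had 1, 1 and 0 counts in Ctrl and 0 in each cKO library. Robo3, a Robo receptor known from midline crossing in the hindbrain, had 2, 9 and 5 counts in Ctrl and 11, 5 and 9 in cKO. Both were too low for the filter and were not tested. Levels are compared between genes in TPM (a level per transcript length), as deposited by the authors. Averaged over the 6 libraries, 12 members were at 100 TPM or more and 23 were under 10 TPM.

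The highest level was that of Efnb2, the ephrin-B2 ligand, at 182 ± 32.1 TPM in Ctrl and 219 ± 4.71 TPM in cKO (SD, n = 3 per group). Robo2, a slit receptor, followed at 149 ± 46.2 TPM in Ctrl and 194 ± 7.23 TPM in cKO. Plxna2, a plexin of class A, was at 144 ± 50.6 TPM in Ctrl and 161 ± 8.99 TPM in cKO. In Ctrl the ranges of these 3 genes overlapped across libraries, but within each Ctrl library the order was Efnb2, Robo2, Plxna2. There Robo2 and Plxna2 lay close in Ctrl replicate 1 (162 and 160 TPM) and Ctrl replicate 3 (188 and 185 TPM). In cKO the ranges of Efnb2, Robo2 and Plxna2 were apart, in that order. At the other end stood Plxnb3, at 0.170 ± 0.182 TPM in Ctrl and 0.310 ± 0.0755 TPM in cKO, and Sema3d, at 0.327 ± 0.0862 and 0.740 ± 0.161 TPM.

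**Figure D1:**
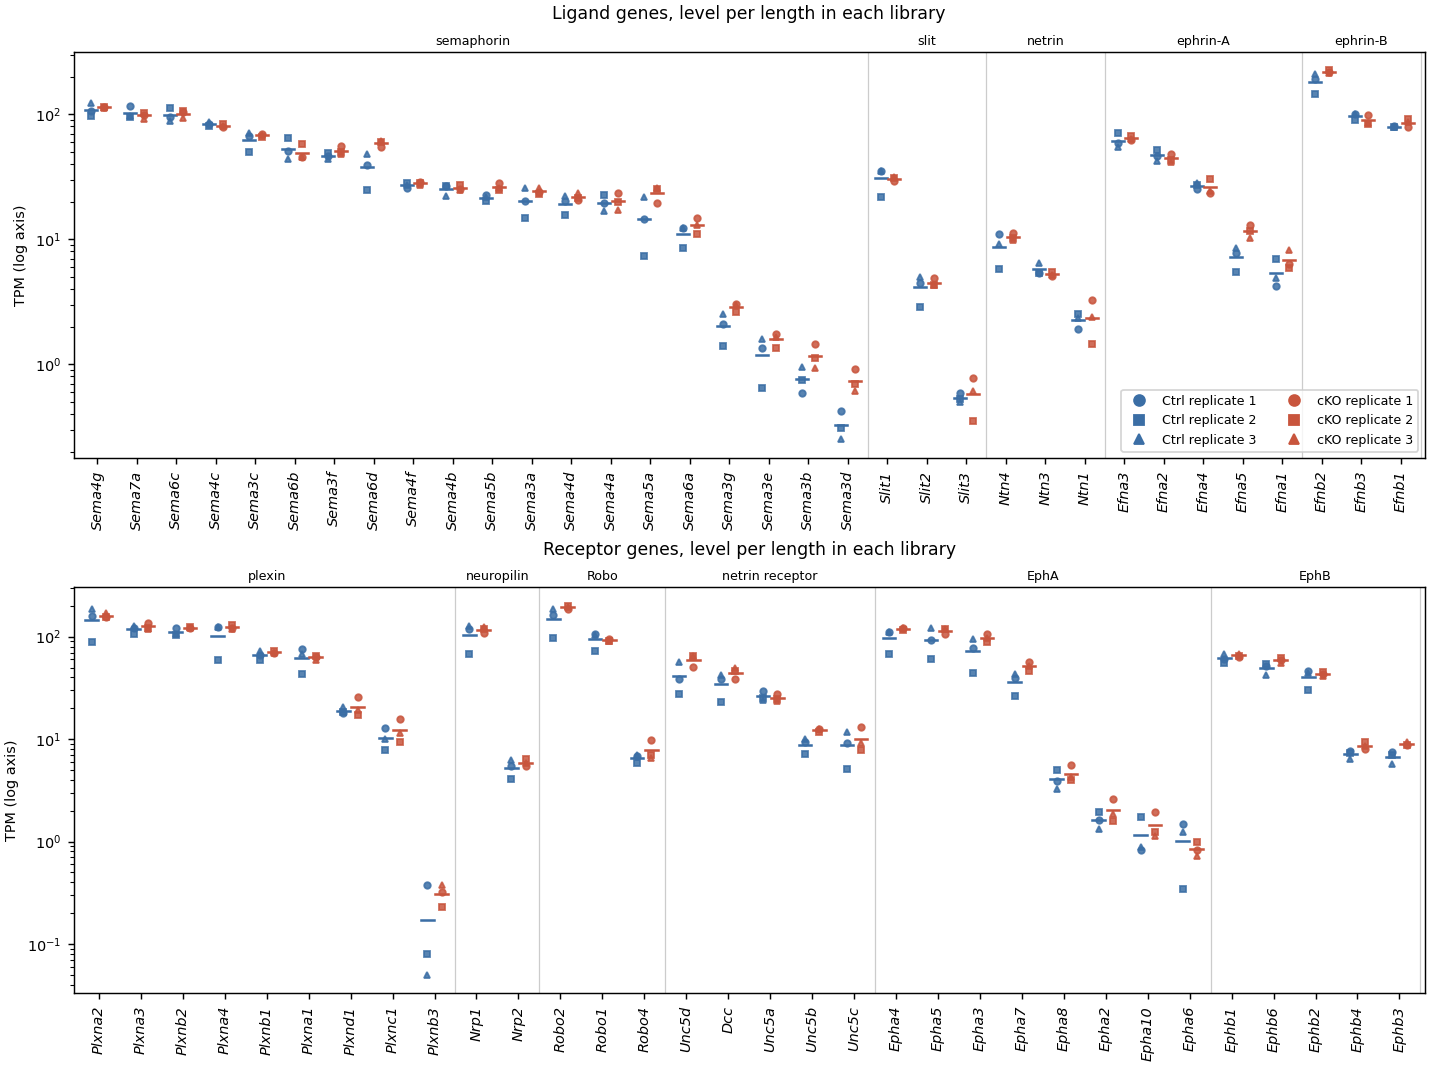
Level of each tested member in TPM (log axis) in each of the 6 libraries, ligands above and receptors below, grouped by family and ordered by mean level. Points are libraries, with marker shape for the replicate number and colour for the group, and short lines are group means. Efnb2 and Robo2 are at the top of their panels, and the square of Ctrl replicate 2 is often the lowest blue point.

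Summed over members and averaged over the libraries, the semaphorins held 25.4% of the TPM of all 68 genes and the plexins 21.7%. Ephrin-B ligands held 12.2%, EphA receptors 11.3%, Robo receptors 8.855%, EphB receptors 5.69%, ephrin-A ligands 4.89%, netrin receptors 4.41% and neuropilins 3.79%. Slits, at 1.15%, and netrins, at 0.563%, were the smallest shares, so the cortex carried far more transcript of the receptors for slits and netrins than of those ligands. Ligands together made up 44.3% and receptors 55.7%. The slit family was mostly Slit1 (86.3% of its TPM), the neuropilins mostly Nrp1 (95.2%), and the ephrin-B family 53.3% Efnb2.

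The total of the 68 genes was 3068, 2420 and 3197 TPM in the Ctrl libraries and 3259, 3278 and 3238 TPM in the cKO libraries. Ctrl replicate 2 was low in this total. In summed TPM, the cKO libraries were all above the Ctrl libraries in 3 of the 11 families, the semaphorins, the ephrin-B ligands and the EphB receptors. In summed CPM this held for 0 families, and 0 families were lower throughout. TPM and CPM differ in scale between these groups, since the median log2 difference of all genes was 0.15 on log2(TPM + 0.5) and 0.00 in the count test. On TPM, limma gave 9 members at an unadjusted p under 0.05, all higher in cKO, beside 10.3% of all genes. Differences between Ctrl and cKO are therefore given in CPM and from the count test in what follows.

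**Figure D2:**
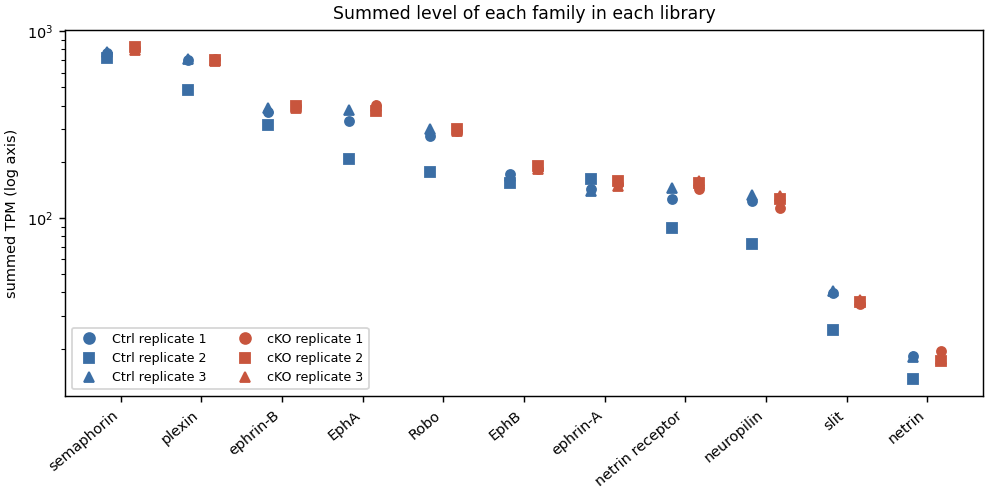
Summed TPM (log axis) of each of the 11 families in each library, ordered by mean. Colours are groups and marker shapes replicate numbers. Semaphorins and plexins are highest, slits and netrins lowest, and Ctrl replicate 2 lies apart in the plexins (486 TPM against 692 to 713 in the other libraries), EphA receptors and Robo receptors.

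Between cKO and Ctrl, 0 of the 66 tested members had an adjusted p under 0.05 in edgeR's quasi-likelihood test, and the smallest adjusted p of a member was 0.465. DESeq2 and the exact test of edgeR also gave 0, with 7 members each (10.6%) at an unadjusted p under 0.05, beside 6.31% and 6.57% of all genes. At an unadjusted p under 0.05 there were 6 members (9.09%), beside 6.62% of all genes tested. Higher in cKO were 5 of them, beside 3.14% of all genes, and 1 was lower, beside 3.49%. The libraries of the groups did not overlap in 9 members (13.6%), beside 14.3% of all genes, 6 with cKO above (7.35% of all genes) and 3 with cKO below (6.93%). The median log2 difference of the members was 0.04, with 37 higher and 29 lower. Leaving out cKO replicate 3 left 2 members, Sema3d and Efna5, at an unadjusted p under 0.05 (3.03% of members, 3.57% of all genes). Leaving out Ctrl replicate 3 gave 14 members (21.2%, beside 13.95% of all genes). In bulk tissue, fewer cells of a type and less RNA per cell cannot be told apart.

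The precision depended on the level. The 95% interval of the fold lay within 1.5-fold in either direction for 39 of the 66 members. It did so for 38 of the 53 members at 10 CPM or more and for 1 of the 13 below. For the remaining members a change of 1.5-fold was within the interval and was not resolved at this depth and spread.

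Efna5 encodes ephrin-A5, a ligand known for setting topographic maps and cortical area borders. It lies on the minus strand of chromosome 17, from 62604184 to 62881317 (GRCm38, GENCODE M21). Its level was 16.99, 13.4 and 18.2 CPM in Ctrl and 26.3, 23.9 and 21.3 CPM in cKO. All cKO libraries were above all Ctrl libraries. The fold of cKO over Ctrl was 1.47 (95% interval 1.16 to 1.88), a log2 difference of 0.56 with a standard error of 0.154 (unadjusted p = 0.00555, adjusted p = 0.465, edgeR). The difference had the same sign in each of 17 alternative fits, which reuse these libraries and so are no independent support. Its smallest adjusted p there was 0.0816.

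Sema3d, a secreted class 3 semaphorin, lies on the plus strand of chromosome 5, from 12383385 to 12588948. It was one of the lowest members, with 19, 17 and 10 counts in Ctrl and 39, 29 and 25 counts in cKO. In CPM these were 1.19, 0.995 and 0.685 against 2.41, 1.83 and 1.596, and the groups did not overlap. The fold was 2.015 (95% interval 1.26 to 3.22), the largest of the tested members by the count test (unadjusted p = 0.00815, adjusted p = 0.494, edgeR). At these counts the interval reaches from a small to a more than 3-fold difference.

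Sema6d, a transmembrane semaphorin that binds plexins of class A, is on the plus strand of chromosome 2, from 124089969 to 124667770. Its level was 107, 74.7 and 126 CPM in Ctrl and 135, 152 and 153 CPM in cKO. The groups did not overlap, and Ctrl replicate 2 was the lowest library. The fold was 1.43 (95% interval 1.08 to 1.89, unadjusted p = 0.0174, adjusted p = 0.599, edgeR), and without Ctrl replicate 2 the log2 difference went from 0.52 to 0.33.

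Unc5b, a netrin receptor also known from endothelial tip cells, is on the minus strand of chromosome 10, from 60762593 to 60831581. It stood at 23.5, 20.4 and 24.5 CPM in Ctrl and at 29.4, 27.6 and 29.2 CPM in cKO, without overlap. The fold was 1.26 (95% interval 1.05 to 1.53, unadjusted p = 0.0208, adjusted p = 0.609, edgeR). Vessel markers stood beside it. Of 10 endothelium and pericyte markers, 9 were higher in cKO, with a median log2 difference of 0.23 and a summed level of 366 to 440 CPM in Ctrl and 417 to 514 CPM in cKO. Their part in the result was not tested.

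Epha7, an EphA receptor known for its role in corticothalamic topography, is on the plus strand of chromosome 4, from 28813131 to 28967499. Its level was 96.2, 75.1 and 106 CPM in Ctrl and 130, 108 and 116 CPM in cKO. The lowest cKO library was just above the highest Ctrl library. The fold was 1.28 (95% interval 1.02 to 1.601, unadjusted p = 0.0378, adjusted p = 0.711, edgeR).

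Efnb3 encodes ephrin-B3, known as a midline barrier for corticospinal axons, and was the 1 member lower in cKO at this threshold. It lies on the minus strand of chromosome 11, from 69554092 to 69560205. Its level was 134, 137 and 128 CPM in Ctrl and 123, 104 and 106 CPM in cKO, with every cKO library below every Ctrl library. The fold was 0.832 (95% interval 0.703 to 0.985, unadjusted p = 0.0358, adjusted p = 0.696, edgeR). With 3 libraries against 3, the exact two-sided permutation p of each of these 6 genes was 0.1, the smallest that the design allows.

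**Figure D3:**
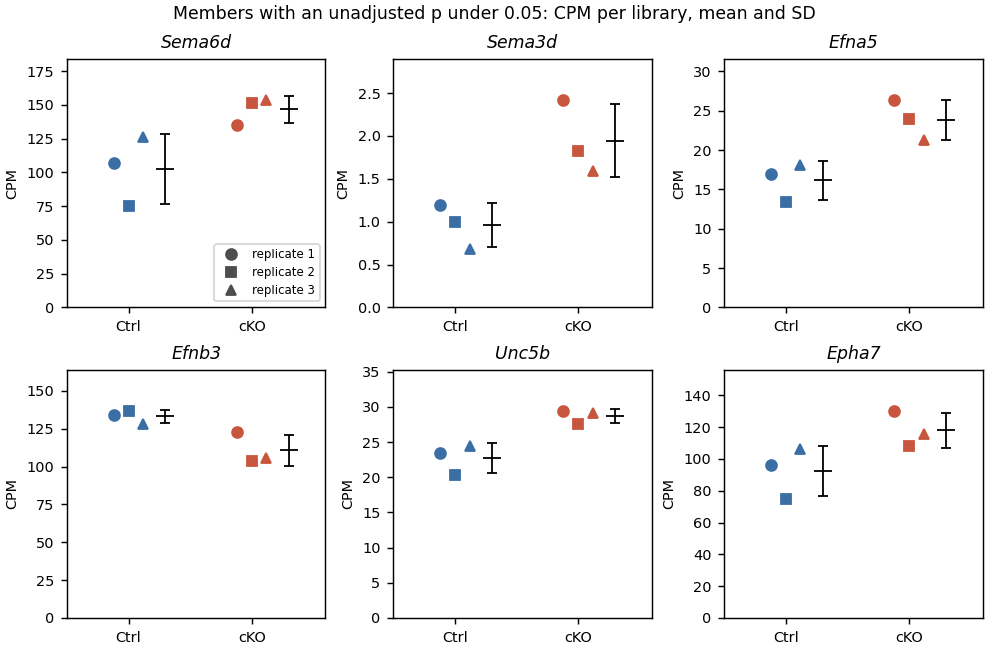
CPM of the 6 members with an unadjusted p under 0.05, 1 panel each, with an axis from 0. Points are libraries, with marker shape for the replicate number, and the bar beside them is the mean with SD (n = 3 per group). The groups do not overlap in any panel, and Ctrl replicate 2 is the lowest library in Sema6d, Efna5, Unc5b and Epha7.

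Among the ligands, the semaphorins were even, with 10 of 20 higher and 10 lower and a median log2 difference of 0.01. Sema4g, the semaphorin at the highest level, was at 192, 200 and 214 CPM in Ctrl and at 195, 195 and 191 CPM in cKO. Its interval of the fold was 0.818 to 1.12. The largest difference downward was that of Sema6b, at 79.4, 116 and 66.5 CPM in Ctrl and 66.0, 84.9 and 66.0 CPM in cKO. These groups overlapped, and without Ctrl replicate 2, the highest library, its log2 difference went from -0.27 to -0.01.

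The semaphorin classes differed in their medians. The 7 secreted class 3 genes had a median of 0.30 with 5 of 7 higher, and 4 of these 7 were lowest in Ctrl replicate 2. Without that library the class 3 median was 0.09. The higher genes were Sema3a, at a mean of 54.5 CPM, and Sema3b, Sema3d, Sema3e and Sema3g, at 1.13 to 4.08 CPM. The lower genes, Sema3c and Sema3f, had log2 differences of -0.02 each at 135 and 66.3 CPM. The 2 class 5 genes had a median of 0.36, and 0.23 without Ctrl replicate 2. The summed CPM of class 3 was 269.6, 246 and 277 in Ctrl and 278, 262 and 266 in cKO, which overlapped. The 6 class 4 genes had a median of -0.08 with 5 of 6 lower, and without Ctrl replicate 2 their median was -0.02. Their summed CPM was 484, 523 and 499.7 in Ctrl and 469, 477 and 462 in cKO. Sema4c, named because it was among the 3 genes with all cKO libraries below Ctrl, was at 137, 150 and 140 CPM in Ctrl and at 121, 130 and 125 CPM in cKO (interval of the fold 0.752 to 1.03).

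Slits were low, and each of the 3 was lower in cKO without passing the test. Slit1 was at 109, 79.2 and 109 CPM in Ctrl and at 86.7, 91.7 and 93.0 CPM in cKO, so that cKO lay inside the Ctrl range. Its fold was 0.915 (95% interval 0.737 to 1.14). The median of the 3 slits was -0.05. Without Ctrl replicate 2 this median was -0.16, and the log2 difference of Slit1 went from -0.13 to -0.27 (unadjusted p = 0.00563, adjusted p = 0.185, edgeR).

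Netrins were scarce. Ntn4, a basement membrane netrin, was at 10.5, 6.38 and 8.43 CPM in Ctrl and at 9.91, 9.19 and 8.88 CPM in cKO. Ntn3 was at 11.3, 12.9 and 13.1 CPM in Ctrl and at 9.91, 10.8 and 10.1 CPM in cKO, with all cKO libraries below Ctrl. Its fold was 0.828 (95% interval 0.665 to 1.03), which includes equality.

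Of the ephrin-A ligands, Efna5 was higher as given above, while the intervals of Efna3 and Efna2, the most abundant ones per length, included equality. Efna3 was at 40.8, 55.04 and 39.5 CPM in Ctrl and at 41.9, 42.5 and 42.8 CPM in cKO. Efna2 was at 38.8, 49.4 and 33.9 CPM in Ctrl and at 36.8, 33.8 and 32.4 CPM in cKO. The folds of Efna3 and Efna2 were 0.939 (95% interval 0.753 to 1.17) and 0.843 (0.667 to 1.07). In both, Ctrl replicate 2 was the highest library and the groups overlapped. The family median was -0.09 and went to 0.08 without that library.

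Of the ephrin-B ligands, Efnb2 was at 391, 341 and 415 CPM in Ctrl and at 416, 432 and 412 CPM in cKO. The groups overlapped, with a fold of 1.10 (95% interval 0.919 to 1.31). Efnb1, on the X chromosome, was at 112, 125 and 105 CPM in Ctrl and at 102, 120 and 113 CPM in cKO. Its fold was 0.978 (95% interval 0.817 to 1.17). So within this family Efnb3 stood below Ctrl, and the intervals of the other 2 genes included equality.

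Among the receptors, 23 of 32 tested were higher and 9 lower, with a median log2 difference of 0.10, beside 0.00 for all genes tested. Without Ctrl replicate 2 the receptor median was 0.02. The 9 plexins had a median of 0.01. Plxna2 was at 784, 488 and 874 CPM in Ctrl and at 706, 716 and 779 CPM in cKO, and Plxna1 at 303, 196 and 259 CPM in Ctrl and 236, 242 and 221 CPM in cKO. In both genes Ctrl replicate 2 was the lowest library and cKO lay between the Ctrl libraries. Plxna3, on the X chromosome, was at 342, 307 and 336 CPM in Ctrl and at 346, 319 and 304 CPM in cKO (interval of the fold 0.831 to 1.17). Plxnb3, also on the X chromosome, had 11, 4 and 1 counts in Ctrl and 12, 5 and 11 counts in cKO, too few to bound its fold closely (interval 0.632 to 4.76).

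Both neuropilins were close to Ctrl. Nrp1, the co-receptor for class 3 semaphorins and for VEGF, was at 304, 199 and 313 CPM in Ctrl and at 258, 286 and 297 CPM in cKO. All cKO libraries lay inside the Ctrl range, and the fold was 1.03 (95% interval 0.787 to 1.35).

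Robo2 was at 620, 424 and 697 CPM in Ctrl and at 662, 723 and 696 CPM in cKO, with a fold of 1.196 (95% interval 0.910 to 1.57). Robo1 was at 363, 279 and 337 CPM in Ctrl and at 301, 289 and 289 CPM in cKO, with a fold of 0.898 (95% interval 0.741 to 1.09). Their log2 differences, 0.26 and -0.15, had opposite signs. Without Ctrl replicate 2 they were 0.08 and -0.26.

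Of the 5 netrin receptors 4 were higher in cKO, with a median of 0.23, the highest of the 11 families. Unc5d, a receptor of upper-layer neurons, was at 157, 126 and 220 CPM in Ctrl and at 188, 242 and 240 CPM in cKO. The groups overlapped through Ctrl replicate 3, and the fold was 1.33 (95% interval 0.976 to 1.82). Unc5a was at 48.7, 46.9 and 38.3 CPM in Ctrl and at 41.9, 38.7 and 36.9 CPM in cKO, a fold of 0.876 (95% interval 0.721 to 1.07). Ctrl replicate 2 was the lowest library in 4 of the 5 genes, and without it the family median was 0.06.

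EphA receptors were higher in 7 of 8 tested genes, with a median of 0.17. Epha4, the EphA receptor at the highest level and one that binds both ephrin classes, was at 308, 212 and 294 CPM in Ctrl and at 309, 298 and 310 CPM in cKO. The fold was 1.13 (95% interval 0.894 to 1.42), and without Ctrl replicate 2 its log2 difference was 0.02. Epha6 was the 1 lower gene, at 8.28, 3.045 and 8.43 CPM in Ctrl and at 5.39, 6.17 and 5.17 CPM in cKO, again with cKO inside the Ctrl range. Without Ctrl replicate 2 the log2 difference of Epha6 went from -0.23 to -0.58 (unadjusted p = 0.00501, adjusted p = 0.178, edgeR). The family median without Ctrl replicate 2 was 0.16.

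In the EphB receptors the median was 0.10, or 0.22 without Ctrl replicate 2. Relative to all genes, the EphB median was 0.097, and -0.00328 without Ctrl replicate 3. Ephb1 was at 120, 127 and 131 CPM in Ctrl and at 117, 121 and 126 CPM in cKO, with a fold of 0.967 (95% interval 0.828 to 1.13). Ephb3 was at 13.0, 13.8 and 9.52 CPM in Ctrl and at 14.4, 14.4 and 15.3 CPM in cKO. Its groups did not overlap, with a fold of 1.21 (95% interval 0.932 to 1.57).

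**Figure D4:**
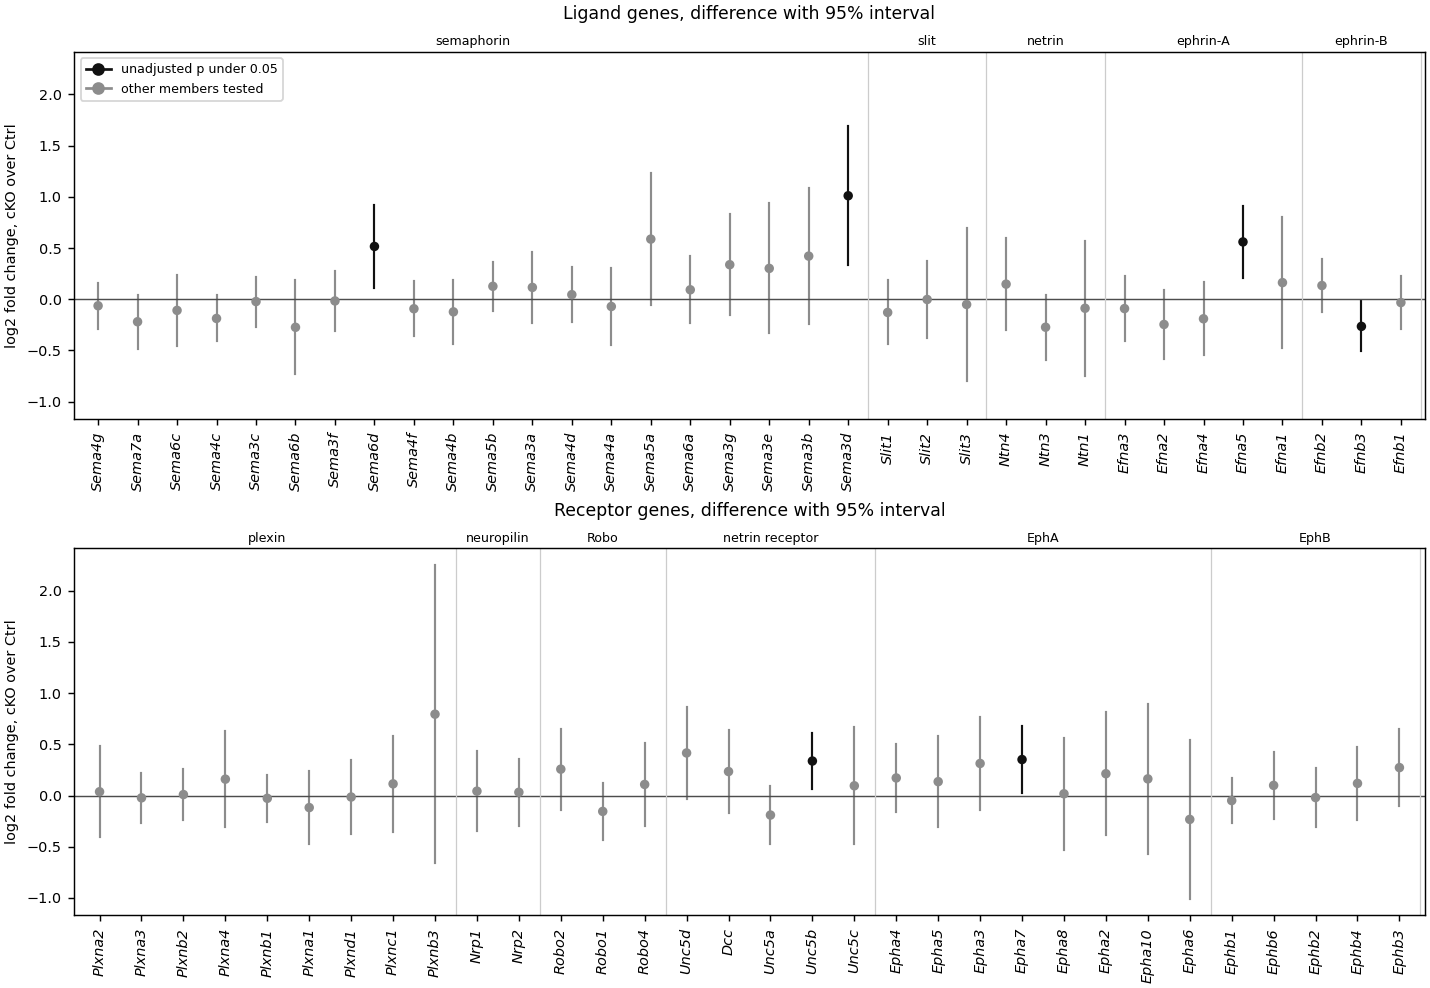
Log2 fold change of cKO over Ctrl with its 95% interval from edgeR for each tested member, ligands above and receptors below, in the order of the plot of levels. Black marks the 6 members with an unadjusted p under 0.05 and grey the others. Most intervals include 0, more receptors (23 of 32) than ligands (14 of 34) lie above 0, and the low genes Plxnb3 and Sema3d have wide intervals.

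Ctrl replicate 2 moved with these differences. It was the lowest of the 6 libraries in 30 of the 66 members (45.5%), beside 33.9% of all genes tested. Across the members, its log2 ratio to the mean of the other Ctrl libraries went with the GC content of the transcript (r = 0.714) and against its log2 length (r = -0.623). Over all 13318 tested genes with a known transcript these values were 0.518 and -0.602. The points share libraries and are genes, not replicates, so the correlations are descriptions.

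The difference between the groups carried the same pattern. Among the members, the log2 difference of cKO to Ctrl went against GC content with r = -0.491, beside -0.158 over all genes. For the members, r was -0.0692 once Ctrl replicate 2 was left out and -0.306 after the length and GC correction of each library. Over all genes these values were 0.112 and 0.0053. The 13 members with under 45% GC, among them Efna5, Epha7 and Sema3d, had a median difference of 0.26, beside 0.06 for all genes of that class. Of these 13, Ctrl replicate 2 was lowest in 12 (92.3%), beside 59.2% of all genes of that class. The exception was Sema3d, which was lowest in Ctrl replicate 3. Without Ctrl replicate 2 the median of the 13 was 0.06.

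The 6 members with an unadjusted p under 0.05 were also fitted without this library. Without Ctrl replicate 2, the log2 differences were 0.44 for Efna5, 1.04 for Sema3d, 0.33 for Sema6d, 0.26 for Unc5b, 0.22 for Epha7 and -0.25 for Efnb3, each still with an unadjusted p under 0.05. In that fit 12 members (18.2%) and 12.1% of all genes were at an unadjusted p under 0.05. The other 6 members, named after their values were seen, were Ephb3 and Ephb6, higher in cKO, and Plxna1, Robo1, Slit1 and Epha6, lower in cKO. After a correction of each library for transcript length and GC content, the differences of Efna5, Sema3d, Sema6d, Unc5b, Epha7 and Efnb3 were 0.52, 0.90, 0.45, 0.32, 0.24 and -0.21, and Efnb3 had an unadjusted p of 0.0611 (edgeR). In that fit 9 members (13.6%) and 12.7% of all genes were at an unadjusted p under 0.05. The smallest adjusted p of a member after that correction was 0.0816, that of Efna5.

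**Figure D5:**
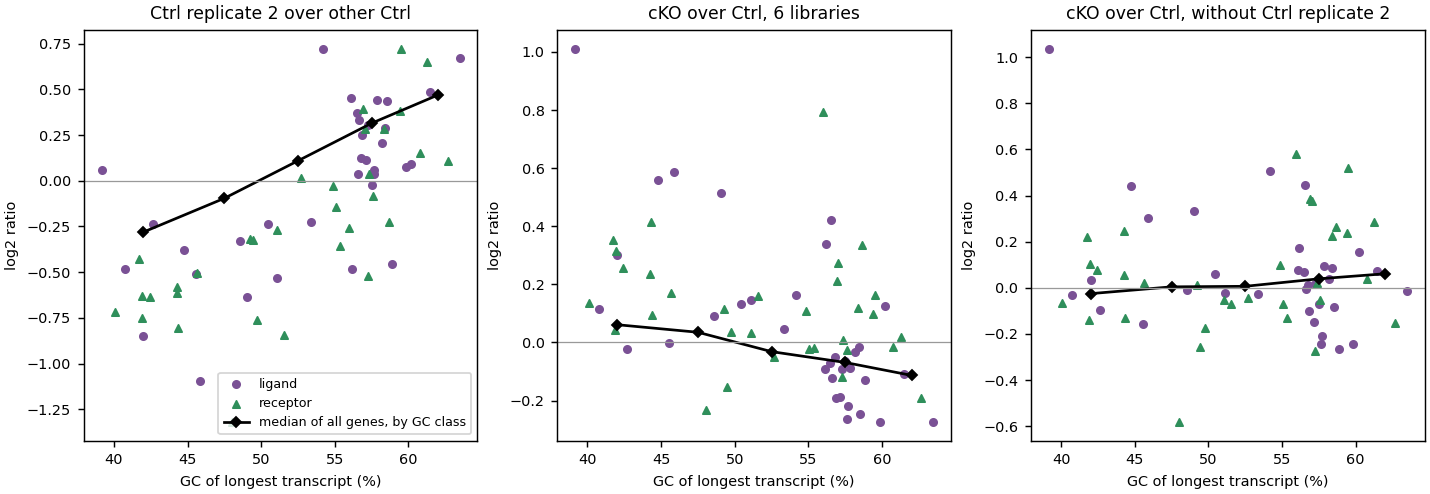
GC content of the longest transcript (%) of the 66 tested members against 3 log2 ratios: Ctrl replicate 2 over the mean of the other Ctrl libraries (left), cKO over Ctrl in 6 libraries (middle) and cKO over Ctrl without Ctrl replicate 2 (right). Circles are ligands and triangles receptors, and the black line joins the medians of all tested genes in 5 classes of GC content, the outer classes being open-ended. The left panel rises (r = 0.714), the middle one falls (r = -0.491) and the right one is nearly flat (r = -0.0692).

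Genes that act beside the families were read from a pair of lists. Of 60 intracellular signalling genes, all tested, 0 had an adjusted p under 0.05, 0 were higher and 5 lower at an unadjusted p under 0.05, beside 3.14% and 3.49% of all genes, and the median log2 difference was 0.03. The 5 were Crmp1 and Dpysl5, collapsin response mediators that act in semaphorin signalling and on microtubules, Ablim3, an actin-binding LIM protein, Chn1, a Rac GAP that acts after Epha4, and Limk2, a kinase of cofilin. All cKO libraries were below all Ctrl libraries in each of the 5, beside 6.93% of all genes. The 5 were picked by their p in these same libraries, so this is no added support. Crmp1 was at 1426, 1698 and 1285 CPM in Ctrl and at 1033, 1101 and 1042 CPM in cKO, a fold of 0.720 (95% interval 0.588 to 0.882, adjusted p = 0.465, edgeR). Ablim3 was at 48.5, 44.3 and 39.8 CPM in Ctrl and at 30.3, 29.3 and 33.4 CPM in cKO, a fold of 0.701 (95% interval 0.582 to 0.844, adjusted p = 0.348, edgeR). By DESeq2 the adjusted p of Ablim3 was 0.0371. The folds of Chn1, Dpysl5 and Limk2 were 0.821, 0.811 and 0.835. Without Ctrl replicate 2, the highest library of Crmp1, its log2 difference went from -0.47 to -0.36. That of Limk2 went from -0.26 to -0.20, of Chn1 from -0.29 to -0.26 and of Dpysl5 from -0.30 to -0.32. That of Ablim3 stayed at -0.51.

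Of 40 co-receptors and further cues, 38 were tested. At an unadjusted p under 0.05, 5 were higher and 2 lower, beside 3.14% and 3.49% of all genes. There were 0 with an adjusted p under 0.05, and the median was 0.04. Draxin, a secreted cue that binds Dcc and netrins, was at 273, 203 and 248 CPM in Ctrl and at 172, 159 and 158 CPM in cKO. Its groups did not overlap, and its fold was 0.676 (95% interval 0.552 to 0.828, adjusted p = 0.348, edgeR). By DESeq2 the adjusted p of Draxin was 0.0141 and that of Islr2 0.0246, and without Ctrl replicate 2 that of Draxin was 0.00351 in edgeR. Islr2, a leucine-rich repeat protein of growing axons, was at 470, 528 and 413 CPM in Ctrl and at 340, 325 and 344 CPM in cKO, a fold of 0.714 (95% interval 0.591 to 0.863, adjusted p = 0.390, edgeR). All 5 higher genes were above Ctrl in every cKO library, beside 7.35% of all genes, and were likewise picked by their p. The 3 of them with the smallest p were Cntn1, a contactin, Rgmb, a ligand of neogenin, and Cdon, a Hedgehog co-receptor. The folds of these 3 were 1.42 (1.15 to 1.76), 1.29 (1.10 to 1.502) and 1.45 (1.11 to 1.90), with 95% intervals in parentheses. Without Ctrl replicate 2 their log2 differences went from 0.51 to 0.38, from 0.36 to 0.39 and from 0.54 to 0.35. In the same fit that of Draxin went from -0.57 to -0.68 and that of Islr2 from -0.49 to -0.39.

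The cellular make-up was read from 14 marker lists, in which 0 genes had an adjusted p under 0.05 by edgeR. At an unadjusted p under 0.05 there were 4 of 97 marker genes tested (4.12%), beside 6.62% of all genes. All 4 were higher in cKO, and they are named after their values were seen: Pax6 of radial glia, Aqp4 of astrocytes, and Cdh5 and Pdgfrb of vessels, with folds of 1.24, 1.67, 1.33 and 1.202. The medians of the neuronal and progenitor lists were -0.09 for radial glia, 0.02 for intermediate progenitors, -0.02 for deep-layer neurons, -0.07 for upper-layer neurons and -0.04 for interneurons. They were -0.15 for striatum and 0.21 for the 3 tested hippocampal genes. Among glia they were -0.24 for oligodendrocyte precursors, 0.02 for astrocytes and 0.07 for microglia, and erythroid genes stood at 0.01. Meningeal genes, 5 of 8 tested and all 5 higher, summed to 15.2 to 18.7 CPM in Ctrl and 19.3 to 20.4 CPM in cKO. Choroid plexus genes summed to at most 1.11 CPM in any library. Sema3d at its low level stood beside this meningeal sum, and its part in the result was not tested.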

How the data were processed

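The authors sequenced mRNA (Trizol, Optimal Dual-mode mRNA Library Prep Kit, DNBSEQ). The submitters' processing notes name HISAT2 2.2.1, Bowtie2 2.4.5, RSEM 1.3.1 and GRCm38/mm10. The annotation and strandedness are not given in the sources used here. The authors deposited 1 table with estimated counts per gene and library, not normalized and 89.4% whole, with TPM and with FPKM values scaled by length and library total. Of its 27 columns 18 were used. The 6 columns of averages were not used.

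Estimated counts were rounded, filtered with filterByExpr, scaled by TMM and tested in R 4.3.3 by the quasi-likelihood F test of edgeR 4.0.16 without a block, p-values being adjusted over all genes tested (Benjamini-Hochberg). CPM are on the TMM-scaled total and errors are SD. Replicates had a biological coefficient of variation of 0.148 over genes. No library was a duplicate of another (chi-square per degree of freedom 3.53 to 65.6 within groups). Standard errors are the fold change divided by the root of F. Length and GC content came from GENCODE M21 (96.7% of genes) and were corrected with mgcv 1.9.3. FPKM values were not analysed further. The scripts were tested on simulated data. Alternatives used DESeq2 1.42.0 and limma 3.58.1, among others. Figures used matplotlib 3.10.9.

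Named are members with an unadjusted p under 0.05, the member at the highest TPM and those with the largest rise and fall of each family, X-linked members, and up to 5 genes of each pathway list by p. Other members were named after their values were seen. The members, gene lists and marker lists were chosen with earlier results of these data known.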

Additional observations from a re-analysis of the deposited data

How the results depend on the processing

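At an adjusted p under 0.05, 0 of the axon guidance genes passed in the reported fit and in 17 alternatives, and 6 did at an unadjusted p under 0.05 with at least 1.2-fold. Over all genes, 10 passed, with 99 by DESeq2, 97 by the exact test of edgeR, 6 without X and Y genes, 151 after the length and GC correction, 149 after it with the replicate block, and 857 at an unadjusted p under 0.05 with at least 1.2-fold. With 1 library left out the number was 8 to 122, with 122 without Ctrl replicate 2 and 19 without Ctrl replicate 3. Of the members, 5 were higher at an unadjusted p under 0.05. There were 8 after the length and GC correction, with or without the block, 9 with limma on log2(TPM + 0.5), and 2 to 9 with 1 library left out. Of all genes, 12.7% were at an unadjusted p under 0.05 after the correction, 14.2% with the block as well, 10.3% on TPM and 3.57% to 13.95% with 1 library left out, against 6.62% in the reported fit. Lower was 1 member, against 3 after the correction with the block, 0 on TPM, and 0 to 5 with 1 library left out. On TPM 85.3% of all genes at an unadjusted p under 0.05 were higher, against 47.4% in the count test.

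With 1 library left out, family medians relative to all genes changed sign in 9 of 11 families: netrins (-0.240 to 0.151), ephrin-B (-0.0953 to 0.037), Robo (-0.086 to 0.214), ephrin-A (-0.185 to 0.073), neuropilins (-0.101 to 0.127), slits (-0.162 to 0.014), plexins (-0.059 to 0.065), EphB (-0.0033 to 0.218) and semaphorins (-0.015 to 0.049). The netrin receptors ran from 0.052 to 0.348 and EphA from 0.083 to 0.232. Of the 28 members and 10 pathway genes named, 31 kept their sign in each alternative and 7 did not. With the length and GC correction the log2 difference was 0.0015 for Efna3, -0.060 for Plxna2 and 0.025 for Efnb1, and with the block as well 0.0018, -0.058 and 0.024. With 1 library left out the values ran from -0.0211 to 0.335 for Ntn4, from -0.177 to 0.0778 for Efna3, from -0.176 to 0.207 for Plxna2, from -0.272 to 0.0344 for Plxna1, from -0.138 to 0.156 for Nrp1, from -0.0872 to 0.039 for Efnb1 and from -0.073 to 0.0183 for Plxna3. The causes were not tested.

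With the replicate number as a block, 11 of all genes and 0 members had an adjusted p under 0.05, and 8 members (12.1%) had an unadjusted p under 0.05, beside 7.62% of all genes. Same-numbered libraries deviated together with r of 0.0824, 0.0519 and 0.217, against -0.135 to 0.0599 between libraries of different number. Ctrl replicates 1 and 3 went best with their own number, and Ctrl replicate 2 with cKO replicate 1 (0.0599). The labels name no pairs, so the number was used as a block in alternatives only. Of 640 combinations of a named gene and an alternative fit, 16 had an adjusted p under 0.05, between 0.00351 and 0.0499. They were spread over Draxin, Islr2, Ablim3, Crmp1, Cntn1, Rgmb and Cdon, each with 17 alternatives. In the reported edgeR fit the adjusted p of these genes was 0.348 to 0.557. Sequencing was in 3 batches, which the labels do not tie to libraries, so within-batch values could not be given. Intervals reached past 1.5-fold in 12 of the 13 members under 10 CPM and in 7 of the 26 at 100 CPM or more.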
